A study of Arabidopsis thaliana with 4 samples.

Results

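The nuclear genes for the subunits of photosystem I, photosystem II and the electron transport chain of the chloroplast were followed in the lux-6 mutant and its wild type. They were taken from a fixed list of identifiers and number 45 of the 33602 gene IDs measured. The list holds LHCA1 to LHCA6, LHCB3 to LHCB7, the nuclear PSA and PSB subunits, both plastocyanins, the Rieske protein gene PETC, the leaf ferredoxin gene FD2, both leaf ferredoxin-NADP reductase genes and the ATP synthase genes ATPC1 and ATPD. All of the samples are whole seedlings of Arabidopsis thaliana in the Col-0 ecotype. The 2 wild-type libraries are called Col-0, and the 2 libraries with the genotype lux -/- are called lux-6. Seedlings of both genotypes were 10 days old, came from long days at 22 °C on MS medium with 3% sucrose, and were harvested at zeitgeber time 12, that is 12 h after lights on. LUX is a DNA-binding component of the evening complex, a repressor of the circadian clock, and the series names the 2 libraries of each genotype biological replicates. The labels do not say what lesion lux-6 carries.

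In the light reactions, pigment-binding antenna proteins pass excitation to the reaction centres of both photosystems. Photosystem II takes electrons from water, and the cytochrome b6f complex, plastocyanin, photosystem I, ferredoxin and ferredoxin-NADP reductase carry them to NADP, while the ATP synthase uses the proton gradient that builds up. The reaction centre proteins themselves are encoded in the plastid, whereas the antenna and most peripheral subunits are encoded in the nucleus, where light and the clock are known to control many of their genes.

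Levels are in FPKM, that is fragments divided by the length of the gene and the size of the library, which lets different genes be set side by side. Pairs of values are given in the order replicate 1, replicate 2, with Col-0 as the wild type and lux-6 as the mutant. For LUX itself (AT3G46640) the transcript was at 57.0 and 73.9 FPKM in the wild type, against 34.8 and 35.3 in the mutant, a log2 fold change of -0.87 that did not pass the test (adjusted p = 0.187). Library totals, worked back from the values, lay between 10735709 and 11198704 fragments, and the members rested on between 95 fragments (LHCB7 in Col-0 replicate 2) and 37015 fragments (PSBR in Col-0 replicate 2). The markers of green tissue RBCS1A, RCA and CAB1 were at 1218 FPKM or more in all libraries, and all 5 root markers were detected, at between 1.16 and 30.8 FPKM. Col-0 replicate 2 stood apart. Its log2 levels correlated at r = 0.909 with Col-0 replicate 1 across 19592 genes, against 0.984 for the mutant pair. The correlation with the mutant libraries was 0.955 and 0.957 for Col-0 replicate 1, closer than with its own replicate, and 0.863 in both cases for replicate 2. Transcripts encoded in the plastid held 3.09% of all FPKM in Col-0 replicate 2 against 0.0525% to 0.0698% in the other libraries. For 36 of the 45 members its value lay outside the range of the other 3 libraries, above them for 23 and below them for 13. Group medians and the larger differences are therefore given also without this library.

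Upstream sequences are shown for the antenna genes with the largest difference between the genotypes and for LHCB4.1, the sister copy of LHCB4.2. This choice was made with the values in view. The stretches run 5′ to 3′ and end at the base before the annotated transcript start. They hold 180 bases, or for LHCB3 112 bases, where the next gene begins. They were read from RefSeq's TAIR10.1 release at chr5:22038053-22038164 on the plus strand (LHCB3), chr3:2717377-2717556 on the plus strand (LHCB4.2), chr5:208686-208865 on the plus strand (LHCB4.1), chr3:17495034-17495213 on the minus strand (LHCA4) and chr3:20341177-20341356 on the minus strand (LHCA1). Capitals mark matches on either strand to the G-box CACGTG, the I-box core GATAAG, the letters CCAATC, the LUX motif as GATACG or GATTCG, and the evening element AAAATATCT.
LHCB3: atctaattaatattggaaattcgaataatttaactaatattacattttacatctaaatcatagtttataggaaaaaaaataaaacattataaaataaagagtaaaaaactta
LHCB4.2: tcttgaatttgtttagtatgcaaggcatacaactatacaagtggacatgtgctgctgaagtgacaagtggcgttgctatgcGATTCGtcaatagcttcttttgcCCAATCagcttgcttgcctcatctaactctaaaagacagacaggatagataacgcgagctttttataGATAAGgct
LHCB4.1: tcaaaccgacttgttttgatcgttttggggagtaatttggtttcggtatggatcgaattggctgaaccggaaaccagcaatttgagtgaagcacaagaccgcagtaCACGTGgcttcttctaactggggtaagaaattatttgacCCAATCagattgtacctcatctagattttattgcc
LHCA4: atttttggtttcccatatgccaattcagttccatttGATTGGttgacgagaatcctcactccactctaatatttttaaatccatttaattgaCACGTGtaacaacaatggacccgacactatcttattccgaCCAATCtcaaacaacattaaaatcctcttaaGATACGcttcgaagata
LHCA1: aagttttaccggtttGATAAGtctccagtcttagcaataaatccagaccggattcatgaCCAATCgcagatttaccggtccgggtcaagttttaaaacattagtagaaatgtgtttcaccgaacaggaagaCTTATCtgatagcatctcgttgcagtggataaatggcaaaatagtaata

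The copies LHCB4.1 and LHCB4.2 both carried CCAATC, while their other marked letters differed. In the upstream stretch of LHCB4.1 a G-box began 74 bases and a CCAATC 35 bases before the transcript start. That of LHCB4.2 held no G-box and had GATTCG at 99, CCAATC at 76 and GATAAG at 9 bases before it. LHCA4 had a G-box at 88 bases, CCAATC at 144 and 48 and GATACG at 17, and LHCA1 had GATAAG at 165 and 49 and CCAATC at 121. LHCB3, which had the highest fold change of the members, held no match in its 112 bases. Over the 300 bases before the start, a G-box was found in 11 of 45 members (24.4%) and in 7.09% of 27443 protein-coding genes. The share was 24.4% against 14.5% for GATAAG, 26.7% against 12.2% for CCAATC, 9 of 45 members against 14.3% of genes for the LUX motif and 4.44% against 2.79% for the evening element. These windows can reach into a neighbouring gene, and a match in letters does not show that a factor binds there.

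Of the 13 antenna transcripts 7 stood higher in both mutant libraries than in both wild-type libraries. Of the 32 other subunit, carrier and ATP synthase transcripts 19 stood lower, but none of the 45 members passed the test over all genes. All members had a mean of at least 1 FPKM and were tested with limma on log2(FPKM + 1) among 19592 genes. The count of members past an adjusted p of 0.05 was 0 in each direction, where the background was 0.286% of genes higher and 0.0051% lower. At an unadjusted p under 0.05 there were 5 members, LHCB3, LHCA1, LHCA4 and LHCB4.2 above and ATPD below, against 12.3% of all genes. Limma-voom on fragments also called 0 members, against 0.447% of genes higher and 0.0154% lower, with a smallest adjusted p of 0.0922. For 8 members both mutant values exceeded both wild-type values and for 22 both were lower, against 26.1% and 22.8% of all genes. The other 15 overlapped. The median log2 fold change was -0.19 over the members and 0.047 over all genes tested.

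**Figure D1:**
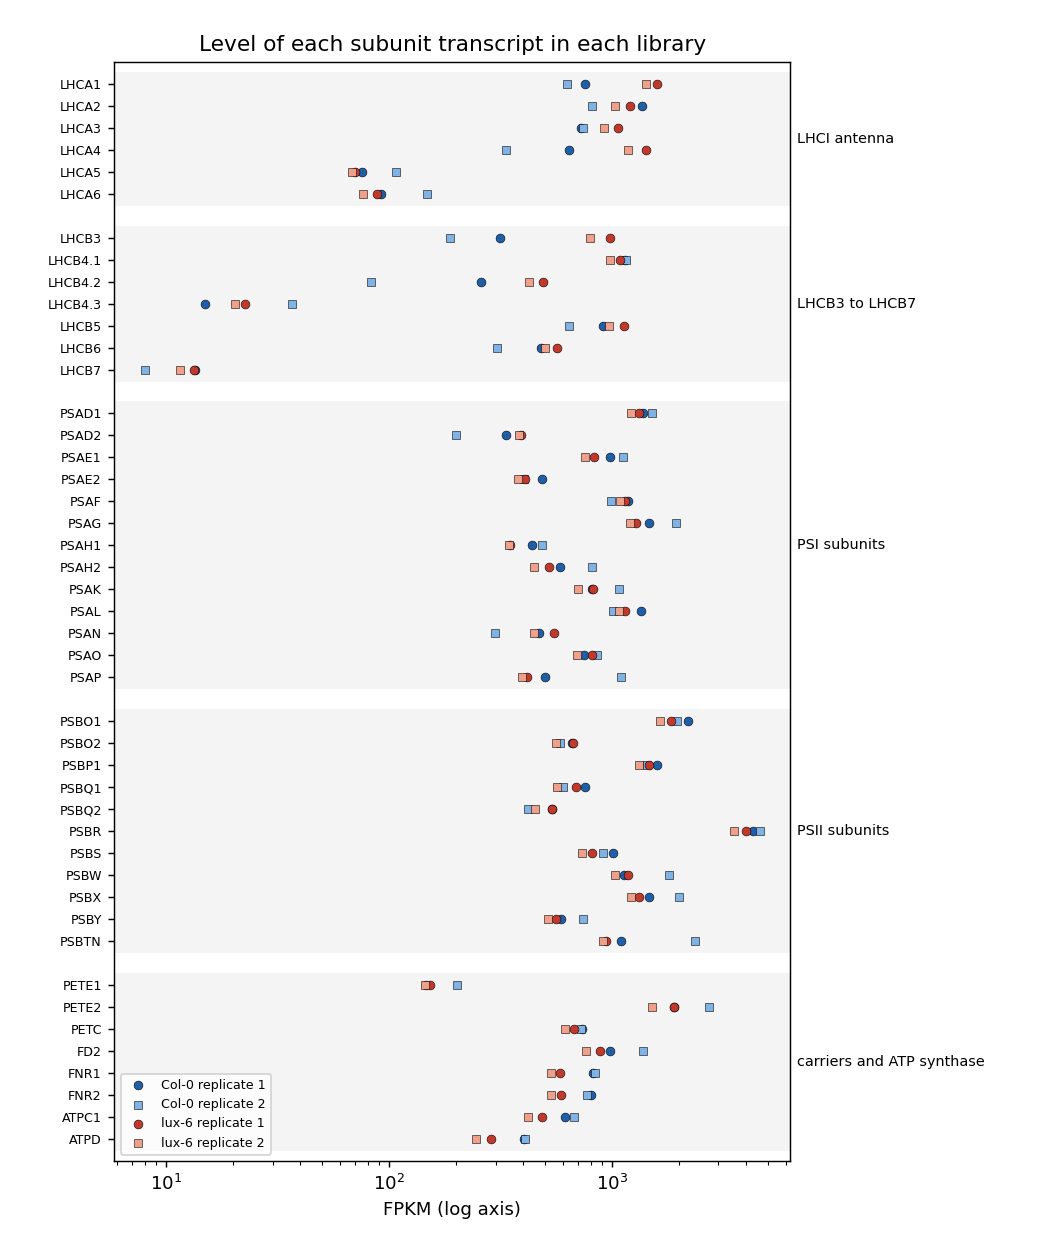
FPKM (log axis) of the 45 subunit transcripts in each library, with circles for replicate 1 and squares for replicate 2, blue for Col-0 and red for lux-6. LHCB3, LHCA1, LHCA4 and LHCB4.2 have both red points to the right of both blue points, and FNR1, FNR2, ATPC1 and ATPD have them to the left.

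**Figure D2:**
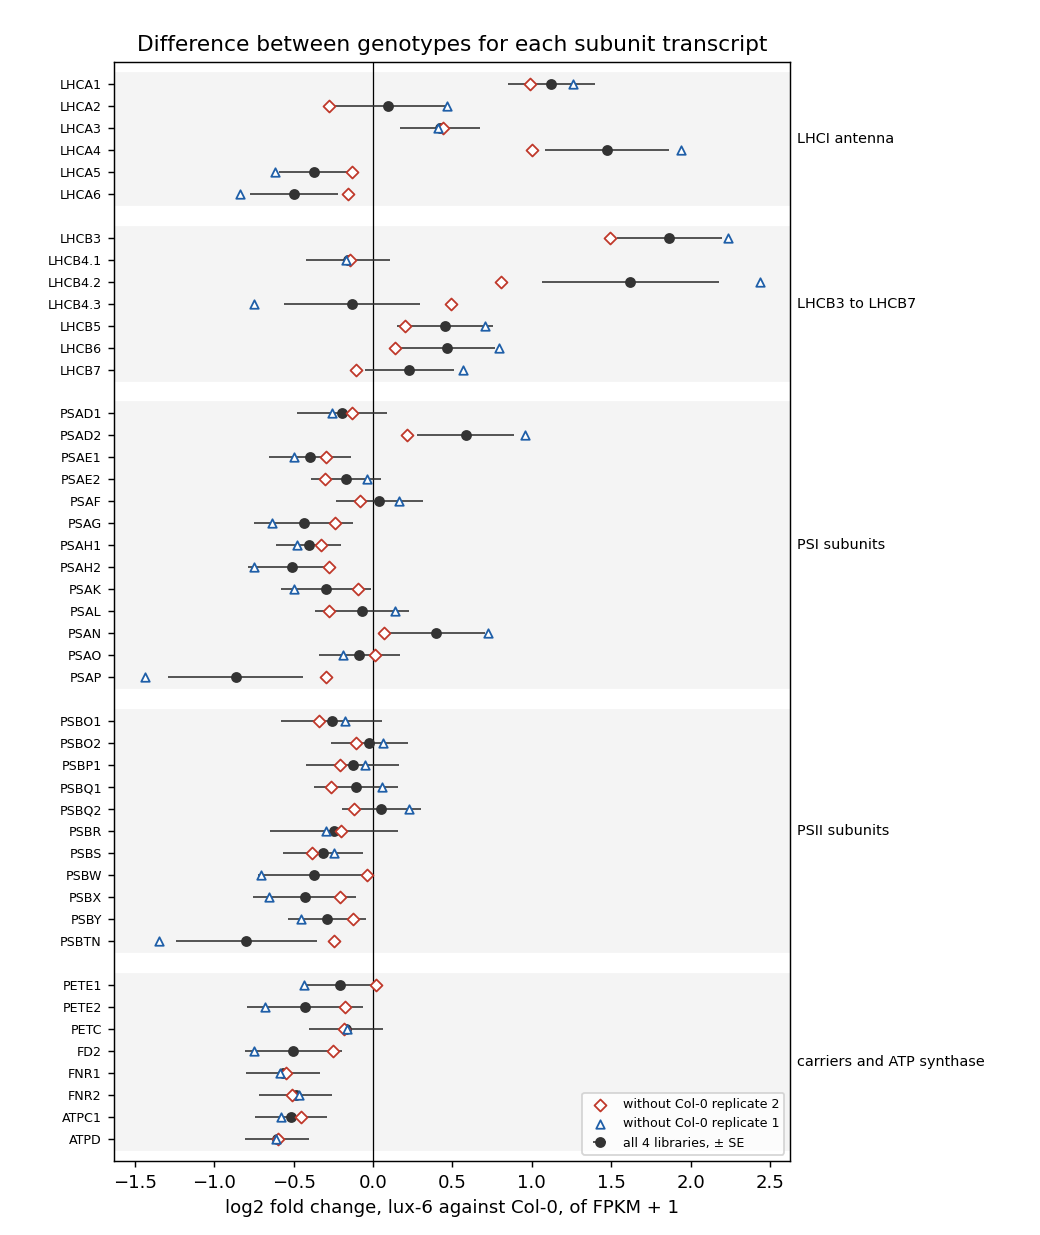
Log2 fold change of lux-6 against Col-0 for each member, from all 4 libraries with its standard error (black) and without Col-0 replicate 1 (blue triangles) or replicate 2 (red diamonds). The antenna groups spread from -0.50 to 1.87, and all 8 carrier and ATP synthase genes lie below 0 with all libraries.

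The antenna of photosystem I is built from LHCA proteins, of which LHCA1 and LHCA4 form a heterodimer and LHCA2 and LHCA3 another. LHCA1 (AT3G54890) stood at 758 and 629.6 FPKM in the wild type, against 1592 and 1424 in the mutant. LHCA4 (AT3G47470) stood at 643 and 335 FPKM in the wild type, against 1416 and 1176 in the mutant. Both lux-6 values of each gene were above both Col-0 values. The log2 fold changes were 1.12 (standard error 0.27) for LHCA1 and 1.47 (0.39) for LHCA4, with adjusted p = 0.220 and 0.259. Set against Col-0 replicate 1 alone, the lux-6 means were 1.99 times as high for LHCA1 and 2.01 times for LHCA4.

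The partners of the other dimer differed less. LHCA3 (AT1G61520) stood at 727 and 743 FPKM in the wild type, against 1060.3 and 917 in the mutant, with close values in the Col-0 libraries and a log2 fold change of 0.42 (standard error 0.25, adjusted p = 0.533). LHCA2 (AT3G61470) stood at 1356 and 809 FPKM in the wild type, against 1202 and 1035 in the mutant, so that the lux-6 values lay between those of the Col-0 libraries. Its log2 fold change of 0.091 turned to -0.28 without Col-0 replicate 2. LHCA5 and LHCA6 are scarce proteins that link photosystem I to the chloroplast NADH dehydrogenase-like complex. LHCA5 (AT1G45474) was at 75.9 and 107 FPKM in the wild type, against 70.2 and 68.2 in the mutant, and LHCA6 (AT1G19150) was at 92.1 and 148 FPKM in the wild type, against 88.5 and 76.4 in the mutant. Both were lower in both lux-6 libraries, by a small margin against Col-0 replicate 1 (log2 fold changes -0.13 and -0.16 without replicate 2). Thus 3 of the 6 LHCA genes were above and 2 below without overlap, against 26.1% and 22.8% of all genes tested, and none passed.

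LHCB3 is a subunit of the trimeric antenna of photosystem II, and LHCB4, LHCB5 and LHCB6 are monomeric antenna proteins between the trimers and the core. LHCB3 (AT5G54270) stood at 313 and 186 FPKM in the wild type, against 981 and 796 in the mutant. Its means of 250.0 ± 89.8 FPKM in the wild type against 888 ± 131 in the mutant (SD, n = 2) gave a 3.55-fold difference, and 2.83-fold against Col-0 replicate 1 alone. The log2 fold change of 1.87 (standard error 0.33) was the highest of the 45 and had the smallest adjusted p, 0.128 with limma and 0.0922 with limma-voom. Without Col-0 replicate 2 the log2 fold change was 1.49.

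The LHCB4 copies had different patterns. LHCB4.1 (AT5G01530) stood at 1142 and 1159 FPKM in the wild type, against 1082 and 981 in the mutant, a narrow range with the lux-6 values slightly below. LHCB4.2 (AT3G08940) stood at 259 and 83.2 FPKM in the wild type, against 488 and 423 in the mutant. Both lux-6 values were above both Col-0 values, which were themselves far apart. The log2 fold change of LHCB4.2 was 1.62 (standard error 0.56, adjusted p = 0.362), with 0.81 without Col-0 replicate 2 and 2.44 without replicate 1. The weakly expressed LHCB4.3 (AT2G40100) was at 14.98 and 36.8 FPKM in the wild type, against 22.5 and 20.4 in the mutant, with the extremes in the Col-0 libraries. Its direction turned from -0.13 to 0.49 without Col-0 replicate 2.

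LHCB5 (AT4G10340) stood at 913 and 642 FPKM in the wild type, against 1135 and 967 in the mutant, and LHCB6 (AT1G15820) at 482 and 305 FPKM in the wild type, against 564 and 499 in the mutant. Both were higher in both lux-6 libraries, although the second lux-6 library came close to Col-0 replicate 1 in each case. Their log2 fold changes of 0.45 and 0.47 (adjusted p = 0.564 and 0.552) shrank to 0.20 and 0.14 without Col-0 replicate 2. LHCB7 (AT1G76570), a rare antenna protein, had the lowest level of the members in each library, 13.4 and 8.04 FPKM in the wild type, against 13.3 and 11.5 in the mutant, and its groups overlapped. Of the 7 genes from LHCB3 to LHCB7, 4 were above and 1 below without overlap, against 26.1% and 22.8% of all genes tested. Their median log2 fold change was 0.45, and 0.20 without Col-0 replicate 2. For the LHCA genes the medians were 0.26 and 0.15.

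Photosystem I subunits had log2 fold changes from -0.87 (PSAP) to 0.58 (PSAD2), of which 10 of 13 were below 0. PSAD and PSAE form the stromal dock for ferredoxin. PSAD1 (AT4G02770) stood at 1382 and 1509 FPKM in the wild type, against 1314 and 1212 in the mutant, slightly lower in lux-6, whereas its copy PSAD2 (AT1G03130) stood at 333 and 199 FPKM in the wild type, against 391.8 and 380.4 in the mutant. PSAD2 was the photosystem I gene with the highest fold change (0.58, adjusted p = 0.504), which was 0.21 without Col-0 replicate 2. PSAE1 (AT4G28750) was at 974 and 1120.0 FPKM in the wild type, against 827 and 758 in the mutant, with both lux-6 values below. PSAE2 (AT2G20260) was at 485 and 403 FPKM in the wild type, against 408 and 378 in the mutant, where Col-0 replicate 2 and lux-6 replicate 1 were nearly level.

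PSAF and PSAN belong to the plastocyanin side of photosystem I. PSAF (AT1G31330) was at 1181 and 994 FPKM in the wild type, against 1144 and 1085 in the mutant and PSAN (AT5G64040) at 472 and 299 FPKM in the wild type, against 548 and 448 in the mutant, and both overlapped. PSAG, which helps to hold the antenna, averaged 1695 ± 329.6 FPKM in the wild type against 1239.8 ± 58.7 in the mutant (SD, n = 2), and PSAK averaged 942 ± 187 FPKM in the wild type against 761 ± 82.5 in the mutant. The lux-6 values of PSAG lay below both Col-0 values, and those of PSAK overlapped them. For PSAG the log2 fold change was -0.44, and -0.24 without Col-0 replicate 2. The subunits PSAH, PSAL and PSAO take part in docking mobile antenna during state transitions. PSAH1 (AT3G16140) stood at 436 and 484 FPKM in the wild type, against 348 and 345 in the mutant and PSAH2 (AT1G52230) at 584 and 809.6 FPKM in the wild type, against 520.1 and 445 in the mutant, both lower in both lux-6 libraries. For PSAH2 the log2 fold change was -0.51, and -0.28 without Col-0 replicate 2. PSAL and PSAO overlapped, with log2 fold changes of -0.072 and -0.087.

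PSAP (AT2G46820), also known as CURT1B and known for bending the thylakoid membrane at grana margins, had the lowest fold change of the members. It stood at 499.5 and 1101 FPKM in the wild type, against 417 and 395 in the mutant. Col-0 replicate 2 alone was far above the rest, and the log2 fold change of -0.87 (standard error 0.42, adjusted p = 0.485) was -0.30 without it. Among the 13 photosystem I genes, 1 was above, 6 were below and 6 overlapped, where 26.1% and 22.8% of all genes tested lay above and below. The group median was -0.19, and -0.24 without Col-0 replicate 2.

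Photosystem II subunits gave no gene above without overlap and 6 of 11 below, where 26.1% and 22.8% of all genes tested lay above and below. PSBO stabilises the manganese cluster that splits water, and PSBP and PSBQ are extrinsic proteins of the same oxygen-evolving complex. PSBO1 (AT5G66570) stood at 2200.2 and 1964 FPKM in the wild type, against 1829 and 1645 in the mutant, lower in both lux-6 libraries. PSBO2 (AT3G50820) was at 658 and 585 FPKM in the wild type, against 667 and 558 in the mutant and PSBP1 (AT1G06680) at 1597 and 1437 FPKM in the wild type, against 1457 and 1317 in the mutant, and both overlapped. PSBQ1 and PSBQ2 overlapped as well and averaged 679 ± 106 FPKM in the wild type against 629.7 ± 86.9 in the mutant, and 478 ± 80.8 FPKM in the wild type against 493 ± 60.6 in the mutant (SD, n = 2). These 5 extrinsic subunit genes had log2 fold changes between -0.26 and 0.051.

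PSBR (AT1G79040), needed for stable assembly of the oxygen-evolving complex, had the highest level of the members in each library, 4302 and 4591 FPKM in the wild type, against 3972 and 3525 in the mutant. PSBS (AT1G44575), the sensor of lumen acidity in non-photochemical quenching, stood at 1005 and 913 FPKM in the wild type, against 812 and 730.3 in the mutant. For both genes the lux-6 values lay below those of Col-0, with log2 fold changes of -0.25 and -0.31 (adjusted p = 0.798 and 0.617). The small subunit genes PSBW, PSBX, PSBY and PSBTN had in common that Col-0 replicate 2 was above the other 3 libraries. PSBTN (AT3G21055) was at 1097 and 2358 FPKM in the wild type, against 935 and 912 in the mutant, and PSBW (AT2G30570) at 1134 and 1802 FPKM in the wild type, against 1174 and 1035 in the mutant. Their log2 fold changes of -0.80 and -0.37 became -0.25 and -0.040 without that library. PSBX and PSBY went from -0.43 and -0.29 to -0.21 and -0.13. The group median was -0.26, and -0.21 without Col-0 replicate 2.

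Carrier and ATP synthase transcripts stood lower in lux-6 in 7 of 8 cases without overlap, against 22.8% of all genes tested. FNR1, FNR2, ATPC1 and ATPD differed by a like amount with and without Col-0 replicate 2. FNR1 (AT5G66190) and FNR2 (AT1G20020) encode the leaf forms of the reductase that passes electrons from ferredoxin to NADP. FNR1 stood at 819.8 and 839 FPKM in the wild type, against 586 and 533 in the mutant. FNR2 stood at 801 and 774 FPKM in the wild type, against 590.4 and 533 in the mutant. For each gene the Col-0 values lay close together and both lux-6 values were clearly lower. The lux-6 mean was 0.675 times the Col-0 mean for FNR1 and 0.713 times for FNR2. Their log2 fold changes of -0.57 and -0.49 did not pass (adjusted p = 0.429 and 0.476) and were -0.55 and -0.51 without Col-0 replicate 2.

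ATPC1 and ATPD encode the gamma and delta subunits of the catalytic part of the ATP synthase. ATPC1 (AT4G04640) stood at 617 and 673 FPKM in the wild type, against 482 and 421 in the mutant. ATPD (AT4G09650) stood at 402 and 405 FPKM in the wild type, against 286 and 245 in the mutant, with near equal Col-0 values. Both lux-6 values of each gene were below both Col-0 values. The log2 fold changes were -0.52 (standard error 0.23, adjusted p = 0.455) and -0.61 (0.20, adjusted p = 0.357). They were -0.45 and -0.60 without Col-0 replicate 2.

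PETC (AT4G03280), the Rieske iron-sulphur protein of the cytochrome b6f complex, stood at 734 and 723 FPKM in the wild type, against 676 and 617 in the mutant. FD2 (AT1G60950), the main leaf ferredoxin, stood at 975 and 1377 FPKM in the wild type, against 878 and 761 in the mutant. Plastocyanin is mostly made from PETE2 (AT1G20340), which stood at 1903 and 2708 FPKM in the wild type, against 1889 and 1504 in the mutant. All of them were lower in both lux-6 libraries, with log2 fold changes of -0.17, -0.50 and -0.43 and, without Col-0 replicate 2, -0.18, -0.25 and -0.18. The minor plastocyanin gene PETE1 (AT1G76100) overlapped, at 147 and 202 FPKM in the wild type, against 153 and 145 in the mutant. The median of the 8 genes was -0.50 with all libraries and -0.35 without Col-0 replicate 2.

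Several subunits are encoded by a pair of gene copies, and the ratio of the copies within a library does not depend on how libraries were scaled. LHCB4.1 stood above LHCB4.2 by a factor of 4.401 and 13.9 in the wild type, against 2.22 and 2.32 in the mutant. The ratio was lower in both lux-6 libraries, with a log2 difference of -1.79, and -0.96 without Col-0 replicate 2. The ratio of PSAD1 to PSAD2 was 4.15 and 7.59 in the wild type, against 3.35 and 3.19 in the mutant, a difference of -0.78, and -0.34 without that library. For these pairs the second copy thus made up more of the total in both lux-6 libraries.

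Smaller differences were seen in pairs whose Col-0 libraries matched. The ratio of PSBO1 to PSBO2 was 3.34 and 3.36 in the wild type, against 2.74 and 2.95 in the mutant, and that of PSBQ1 to PSBQ2 was 1.41 and 1.44 in the wild type, against 1.29 and 1.26 in the mutant. Their log2 differences were -0.24 and -0.16. FNR1 and FNR2 were nearly level in every library, with ratios of 1.02 and 1.08 in the wild type, against 0.993 and 1.001 in the mutant, and the ratio of PETE1 to PETE2 was 0.0771 and 0.0746 in the wild type, against 0.0810 and 0.0964 in the mutant. The ratios of PSAE1 to PSAE2 and of PSAH1 to PSAH2 overlapped between the genotypes. An exact permutation test over the libraries, two-sided, gave p = 0.33 for each of the 6 pairs without overlap, the smallest p that 2 against 2 libraries allow, and 0.444 when adjusted over the 8 pairs. Coding sequences of the copies were 75.0% (PETE1 and PETE2) to 88.0% (PSAD1 and PSAD2) identical, with runs of at most 35 identical bases. How fragments that fit both copies were counted is not given in the sources used here.

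**Figure D3:**
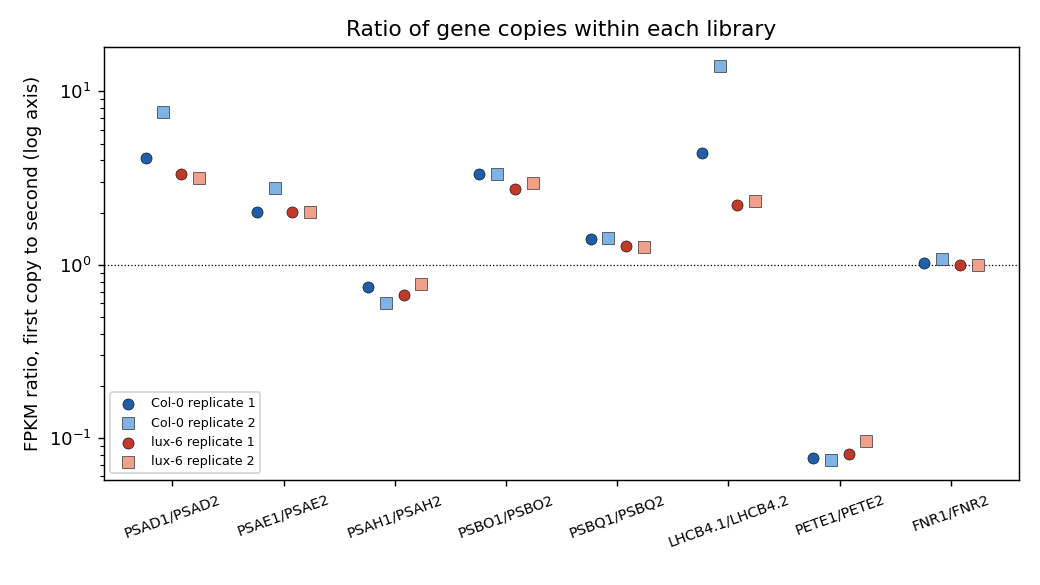
FPKM of the first gene copy divided by that of the second in each library (log axis), with colours and symbols as for the levels. The LHCB4.1 to LHCB4.2 ratio is 4.401 and 13.9 in the wild type against 2.22 and 2.32 in the mutant, while the FNR1 to FNR2 ratio stays near the dotted line at 1.

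Summed over each group, the LHCA and LHCB3 to LHCB7 transcripts were higher relative to the listed nuclear subunits of their photosystem in both lux-6 libraries. LHCB1 and LHCB2 are not in these sums. The summed FPKM of the LHCA genes relative to the photosystem I subunits was 0.341 and 0.235 in the wild type, against 0.544 and 0.515 in the mutant. For LHCB3 to LHCB7 relative to the photosystem II subunits it was 0.205 and 0.139 in the wild type, against 0.307 and 0.296 in the mutant. In both cases the lux-6 libraries were close to each other and above both Col-0 libraries. A few genes made up most of the added antenna level. LHCA1 and LHCA4 gave 834 and 773 of the 1778 FPKM by which the LHCA sum in lux-6 replicate 1 exceeded that in Col-0 replicate 1, and 666 and 533 of 1045 FPKM in lux-6 replicate 2. LHCB3 and LHCB4.2 gave 668 and 229 of the 1148 FPKM for LHCB3 to LHCB7 in lux-6 replicate 1, and 482 and 163 of 559 FPKM in replicate 2. LHCA2, LHCA5, LHCA6, LHCB4.1 and LHCB7 were lower in both than in Col-0 replicate 1. The balance of the photosystems differed less, with a photosystem I to photosystem II ratio of 0.698 and 0.677 in the wild type, against 0.715 and 0.731 in the mutant. All 45 members together made up 5.60% and 5.56% of the FPKM total in the wild type against 5.56% and 5.02% in the mutant. Each of the 45 was lower in lux-6 replicate 2 than in replicate 1, with a median log2 difference of -0.16 against 0.028 over all genes tested. These sums are descriptions of the chosen genes, with no test.

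**Figure D4:**
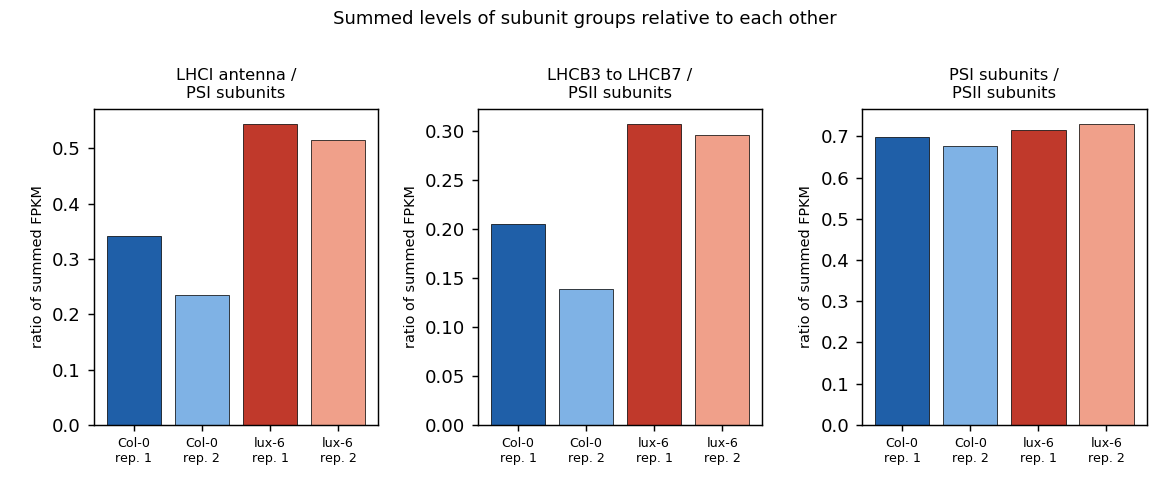
Ratio of summed FPKM between groups of subunits in each library, with bars that start at 0. The ratio of LHCA genes to photosystem I subunits is 0.341 and 0.235 in Col-0 against 0.544 and 0.515 in lux-6. That of LHCB3 to LHCB7 to photosystem II subunits is 0.205 and 0.139 against 0.307 and 0.296.

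By the signed median, the Col-0 replicates differed most in the LHCB group. LHCB3 to LHCB7 had a median log2 difference of -0.66 between Col-0 replicate 2 and replicate 1, the LHCA genes -0.12, the photosystem I subunits 0.15, the photosystem II subunits -0.14 and the carriers and ATP synthase 0.079. Over all genes tested it was -0.14. Such medians hide differences of opposite sign, which ranged from -0.94 to 0.68 for the LHCA genes and from -0.74 to 1.14 for the photosystem I subunits. LHCB4.2 was the lowest with -1.63, and LHCB4.3, PSAP and PSBTN were the highest with 1.24, 1.14 and 1.103. The 10 members with the shortest exon length, 552 to 782 bases, had a median of 0.40, and the 10 longest, 1266 to 1834 bases, -0.01. Spearman's rho between exon length and this difference was -0.32 across the 45 members and -0.08 across 19466 genes, all measured in the same libraries. The rank order of the members' levels was nearly the same in the lux-6 libraries (rho = 0.997 across the 45) and less so between Col-0 replicate 2 and the lux-6 libraries (0.729 and 0.751) than between Col-0 replicate 1 and them (0.878 and 0.893).

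Of the marker lists, the summed seed storage level was higher and the summed green tissue level lower in the mutant, with no overlap of the genotypes. The green tissue markers did not move together. RBCS1A stood at 10599 and 20766 FPKM in the wild type, against 8714 and 8630 in the mutant. RCA was higher in both lux-6 libraries, at 2121 and 1218 FPKM in the wild type, against 2509 and 2178 in the mutant. CAB1 overlapped. The 8 seed storage genes summed to 196 and 13.3 FPKM in the wild type and to 1923 and 2019 FPKM in the mutant, and 2 of them were at 0 in Col-0 replicate 2. The 5 root markers summed to 67.0 and 39.9 FPKM in the wild type and to 43.3 and 53.3 FPKM in the mutant, and the 3 green tissue markers to 15743 and 24361 FPKM and to 14143 and 13385 FPKM. Their part in the members' differences was not tested. In whole seedlings, fewer cells of a type and less RNA per cell cannot be told apart. By annotation, 14 members overlap a gene on the other strand, 2 a gene on the same strand, and PSAH1 has the longest such overlap with 788 bases. Whether strand was kept is not given in the sources used here, so the values of such members are uncertain to that extent. The neighbour of PSAH1, AT3G16130, was at no more than 0.179 FPKM and that of LHCB3, AT5G54280, at no more than 17.7 FPKM. PSAG, PSAE1 and LHCB6 overlap a neighbour by 479, 436 and 358 bases. Those neighbours are not among the gene IDs measured, so their level is not known.

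Other nuclear genes of the light reactions included the LHCB1 and LHCB2 antenna copies, which had a higher median than the rest. Of 54 such genes outside the 45, covering LHCB1 and LHCB2 copies, cyclic electron flow, photoprotection, assembly and regulators, 1 passed upwards and 0 downwards with limma, against 0.286% and 0.0051% of all genes tested, with a median log2 fold change of -0.26. The gene that passed was the LHCB1 copy CAB2 (AT1G29920), at 39.5 and 40.2 FPKM in the wild type, against 336 and 264 in the mutant (adjusted p = 0.0330). Near-identical LHCB1 copies make its value uncertain. Over the 8 LHCB1 and LHCB2 copies the median was 1.54, and 0.95 without Col-0 replicate 2, with 6 above and 0 below without overlap. The copies CAB1 and LHB1B1 overlapped, and their log2 fold changes of 0.034 and 0.61 turned to -0.14 and -0.84 without that library. Over the other 46 genes the median was -0.35, and -0.20 without Col-0 replicate 2. Of these, 4 were above and 29 below, where 26.1% and 22.8% of all genes tested lay above and below.

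In the fits that leave out a library, the counts of members past the test depended on which Col-0 library stayed. Without Col-0 replicate 2, 4 members passed upwards (LHCB3, LHCA1, LHCA4 and LHCB4.2, of which LHCB4.2 had adjusted p = 0.0460) and 0 downwards, against 3.47% and 0.357% of genes. Without Col-0 replicate 1, 8 passed upwards and 20 downwards, against 21.7% and 12.1% of genes. Such fits have 1 Col-0 library, assume that it varies like the lux-6 libraries and take their spread from these, and the fits without a lux-6 library take theirs from the Col-0 libraries. Without either lux-6 library 0 members passed with limma, 1 member had an unadjusted p under 0.05, and 0.0% of genes passed, with 874 genes at an unadjusted p under 0.05 without lux-6 replicate 1 and 889 without replicate 2.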

How the data were processed

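RNA-seq of whole seedlings was compared between 2 Col-0 and 2 lux-6 libraries, grouped by title. RNA isolated with Trizol and cleared of DNA was made into libraries with an NEBNext Ultra kit, per the labels' protocols. Per the submitters' processing notes, TopHat2 2.0.12 and TAIR10 were used, with no role given. The authors deposited 1 file per library, which holds FPKM per the file headers. No source used here names the counter, the gene lengths or any filter. The labels do not say whether the replicates came from separate plantings, so p-values measure the spread between these samples.

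Limma 3.58.1 (R 4.3.3) with a mean-variance trend was fitted to log2(FPKM + 1) with genotype as its term, over the 19592 genes whose mean reached 1 FPKM. P-values, two-sided, were adjusted by Benjamini-Hochberg over all of these, with a threshold of 0.05. The pseudocount understates changes of low genes. The fit was tested on simulated data in which every library had the same spread, so a library that stands apart was not covered. Copy ratios were tested with an exact permutation test (SciPy 1.17.1), which cannot go below 0.33.

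Library totals were read from FPKM times exon length of genes with 1 fragment. Lengths between 0.5 and 1.2 times the annotated one then gave whole fragments, within 0.002 in every library, for 82.9% of 24532 genes above 0 and for 35 of 45 members; the others were estimated. The deposited values are no counts, so no counting intervals are given. Symbols, exons and upstream sequence came from RefSeq TAIR10.1, where 97.7% of the IDs were found. The files carry no coordinates.

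All members are named, with LUX, the tissue markers and, of the other light reaction genes, those past the test. The members and lists were chosen with earlier results of these data known. The alternatives tried were scaling by median of ratios, other filters and pseudocount, organelle genes removed, a replicate block, limma-voom on fragments and each library left out.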

Additional observations from a re-analysis of the deposited data

How the results depend on the processing

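No member passed under median-of-ratios scaling, any filter, a pseudocount of 0.1, removal of organelle genes, the replicate block or limma-voom. Median-of-ratios scaling turned PSAF to -0.022 and PSBQ2 to -0.011. With each library left out in turn, members past the test ranged from 0 to 8 upwards and from 0 to 20 downwards, and other light reaction genes from 0 to 11 and from 0 to 24. Of these genes, 0 passed upwards without a filter or with a pseudocount of 0.1, where no gene at all passed (2680 and 2316 at an unadjusted p under 0.05), and 2 with the replicate block. The block called 332 genes higher and 8 lower of all tested. The replicate differences of Col-0 and of lux-6 correlated at r = -0.03 across genes. That value rests on a single difference per genotype, and Col-0 replicate 2 stood apart. It cannot decide whether the replicate number pairs the libraries. With each library left out in turn the members' median ranged from -0.25 to -0.14, and it was -0.26 under median-of-ratios scaling. Directions that turned with a library left out had these log2 ranges: LHCA2 -0.28 to 0.46, LHCB4.3 -0.75 to 0.49, LHCB7 -0.11 to 0.56, PETE1 -0.44 to 0.021, PSAF -0.085 to 0.16, PSAL -0.28 to 0.14, PSAO -0.20 to 0.023, PSBO2 -0.15 to 0.10, PSBQ1 -0.27 to 0.053, PSBQ2 -0.12 to 0.22. The copy ratios of PSAE1/PSAE2 (-0.46 to 0.0039) and PSAH1/PSAH2 (-0.052 to 0.27) turned as well. The causes were not tested. Depth limits LHCB7 most, with 95 to 156 fragments.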
